A study of Mus musculus with 6 samples.

Results

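The genes described here encode the subunits of the mitochondrial respiratory chain and of the ATP synthase that are coded in the nucleus. They were chosen by a name pattern, with earlier results of these data known. It takes every gene whose name on the array begins with Nduf followed by a, b, c, s or v, with Sdh followed by a, b, c or d, with Uqcr, with Cox and a digit from 4 to 8, or with Atp5. The pattern took 82 of the 27943 gene names on the array. Of these, 80 were measured, among 21503 measured genes in all, where measured means that the signal was well above background by the scanner software's own mark on at least 3 of 6 arrays. By role, 35 names belong to complex I, 4 to complex II, 7 to complex III, 17 to complex IV and 15 to the ATP synthase. The other 4, Ndufaf1, Cox7a2l, Cox4nb and Atp5s, share the name pattern without being counted here as subunits. The 2 names that were not measured were Cox8b, which was well above background on 1 array of each line, and Cox8c, which was so on none.

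RNA from 2 lines of the murine T lymphoma S49, which is cultured in suspension, was hybridised to Agilent arrays of the whole genome, labelled with Cy3 alone. The lines were MR 4-25, whose cells had recovered from mannitol, a polyol with which media are made hyperosmotic, and Neo, the parental S49 cells. Each line had 3 samples and 1 array per sample. Both lines were labelled as receiving no treatment and were grown in the same medium, RPMI-1640 with heat-inactivated calf serum, so no sample was exposed to mannitol when its RNA was taken, as far as the labels say. Each line is 1 cell line, so recovery from mannitol and any other way in which the 2 lines differ cannot be told apart. The labels do not say whether the 3 samples of a line were separate cultures, so the p-values rest on a spread between samples that may be technical.

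Complex I takes electrons from NADH and complex II from succinate, both pass them to ubiquinone, and complexes III and IV carry them on through cytochrome c to oxygen. Complexes I, III and IV move protons across the inner mitochondrial membrane, and the ATP synthase, also called complex V, lets them back through its membrane part, Fo, to drive ATP synthesis in its catalytic part, F1. Most subunits are coded in the nucleus and a small set in the mitochondrial genome, so that the complexes are built from products of both genomes, and dividing lymphoid cells make them throughout growth.

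Values are the log2 of the background-corrected signal relative to the 75th percentile of the array, called the log2 level below, and a difference is MR 4-25 minus Neo on that scale. The 75th percentile was 872, 912 and 521 intensity units on the arrays of MR 4-25 replicates 1, 2 and 3, against 988, 844 and 917 on those of Neo replicates 1, 2 and 3, so MR 4-25 replicate 3 was the dimmest array. Replicates 1 and 2 of both lines were on slide 1, and replicate 3 of both on slide 2. In limma's test, adjusted over all 21503 genes, 259 genes (1.2%) passed an adjusted p of 0.05, of which 143 (0.665%) were higher and 116 (0.539%) lower in MR 4-25. With the replicate number as a block, 1 gene passed. Leaving out 1 array gave 10 genes without MR 4-25 replicate 1, 9 without MR 4-25 replicate 2, 7 without Neo replicate 1, 0 without Neo replicate 2, 37 without Neo replicate 3 and 224 without MR 4-25 replicate 3. All 10 T cell markers on a list of such genes were well above background on all 3 arrays of MR 4-25 and on all 3 of Neo. The same held for 4 of 4 testis markers in both lines, and for 4 of 5 myeloid markers in MR 4-25 and 5 of 5 in Neo, so this mark does not tell cell types apart.

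None of the 80 measured members, of which 76 are subunits of the complexes, passed the test in either direction. By limma, adjusted over all genes, 0 were higher and 0 were lower. At an unadjusted p of 0.05, 7 of the 80 passed, 2 of them higher and 5 lower in MR 4-25, where 13.2% of all measured genes did. The 80 differences had a median of -0.06, with 30 above 0 and 50 below, beside a median of 0.01 over all genes. Above 0 were 9 with normexp, 29 with quantile normalization, 25 with both steps and 29 with median scaling. From the lower to the upper quartile they lay between -0.20 and 0.13. They ran from -0.86 for Ndufb5 to 1.24 for Cox6a2, and 7 of the 80 were over 0.5 in size, a size reached by 36.5% of all measured genes. The median turned to 0.03 without Neo replicate 2, to 0.00 without MR 4-25 replicate 1 and to 0.06 with array quality weights, and was -0.29 with normexp background correction, which moved the median of all genes to 0.34.

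The precision of these 6 arrays bounds what the absence of calls can say. For 68 of the 80 members (85%) the 95% interval of the difference lay within 2-fold in both directions, as it did for 38.6% of all measured genes and for 77.6% of those above the upper quartile of signal. For the other 12 the interval reached a 2-fold difference. These were Ndufb5, Ndufa12, Ndufa5 and Ndufa8 of complex I, Sdha of complex II, Cox7c, Cox7a1, Cox6b2, Cox4i2 and Cox6a2 of complex IV, and Atp5g1 and Atp5l of the ATP synthase. The median standard error was 0.20 for the members and 0.30 for all genes. A p that missed the threshold does not show that a gene had the same level in both lines.

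**Figure D1:**
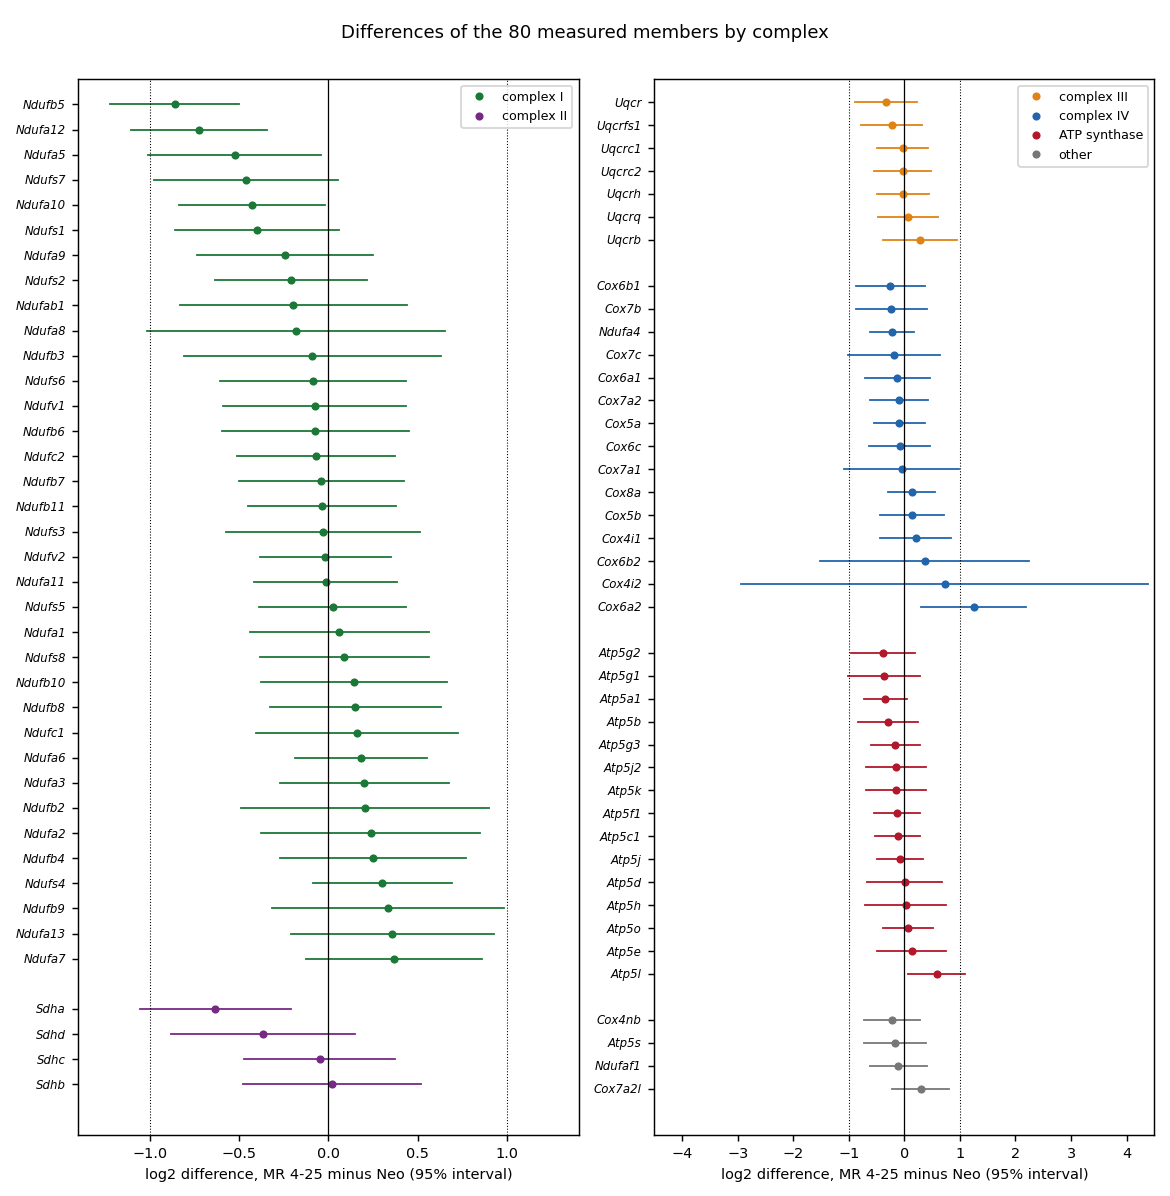
Log2 difference, MR 4-25 minus Neo, of each of the 80 measured members (points), with its 95% interval from limma (lines), grouped by complex and ordered by size, with dotted lines at a 2-fold difference. The left panel holds complexes I and II and the right panel, on a wider axis, the rest. Most points lie close to 0, Ndufb5 is lowest at -0.86 and Cox6a2 highest at 1.24, and the widest interval is that of Cox4i2.

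No overlap between the lines is a second, untested description of the arrays. In 4 of the 80 members the lowest MR 4-25 array was above the highest Neo array, where this held for 11.2% of all measured genes, and in 10 the highest MR 4-25 array was below the lowest Neo array, where this held for 13.2%. With this processing neither share of the members, 5% and 12.5%, was above that of all genes. The 4 were Ndufa7, Ndufs4, Cox6a2 and Atp5l. The 10 were Ndufb5, Ndufa12, Ndufa5, Ndufs7, Ndufa10, Ndufs1, Sdha, Sdhd, Ndufa4 and Atp5a1. Other background corrections and scalings gave a larger share on the lower side. It was 15% of the members against 11.2% of all genes with normexp, 22.5% against 12.8% with quantile normalization, 25% against 12.8% with both steps, and 13.8% against 11.9% with median scaling. On the higher side the share of the members stayed below that of all genes in these 4 settings. With fewer arrays, overlap is less likely by construction. Without Neo replicate 2 the higher count was 11 (13.8%, against 15.8% of all genes), and without MR 4-25 replicate 1 it was 9 (11.2%, against 14.8%). Without MR 4-25 replicate 2 the lower count was 28 (35%, against 17.4% of all genes), and without Neo replicate 3 it was 19 (23.8%, against 19.8%). These shares were not tested.

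In complex I, 0 of 35 subunits passed the test, 4 had an unadjusted p under 0.05, all lower in MR 4-25, and the median difference was -0.03, with 15 above 0 and 20 below (4 and 31 with normexp). The 7 core subunits on the list, which hold the flavin, the iron-sulphur clusters or the catalytic path, had a median of -0.08, and the 28 accessory subunits, which surround that core, a median of 0.00. Ndufb5, an accessory subunit of the membrane arm, had log2 levels of 1.19, 1.39 and 1.30 in MR 4-25 replicates 1, 2 and 3, against 2.14, 2.10 and 2.23 in Neo replicates 1, 2 and 3. Every MR 4-25 array was below every Neo array, and the replicates of a line lay close together. The difference was -0.86 (SE 0.14, n = 3 per line), a 1.82-fold lower signal in MR 4-25, with an unadjusted p of 0.0015 and an adjusted p of 0.078 by limma. Within slides it was -0.83 on slide 1 and -0.93 on slide 2. The Ndufb5 probe lies at chr3:32560081-32560140 on build mm7, and whether it falls in a coding or an untranslated exon was not examined here. Mrpl47, a mitochondrial ribosomal protein gene that lies next to Ndufb5 on the opposite strand, had a difference of -0.0022 (SE 0.14). Usp13, the measured gene on the other side, had a difference of -0.87 (SE 0.91). In RNA from whole cultures, less of a transcript in every cell and fewer cells that carry it cannot be told apart.

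Ndufa12, an accessory subunit attached to the matrix arm, was measured by 3 probes, and none of them overlapped between the lines. The brightest, at chr10:93780198-93780257, had log2 levels of 4.22, 4.31 and 4.27 in MR 4-25 and 4.91, 5.16 and 4.91 in Neo. All 3 MR 4-25 arrays were below all 3 Neo arrays. Its difference was -0.72 (SE 0.15, n = 3 per line), a 1.65-fold lower signal, with an unadjusted p of 0.0040 and an adjusted p of 0.13 by limma. The other two probes differed by -0.81 and -0.89. They are printed here because they share 40 of their 60 bases, in capitals, and so do not measure Ndufa12 independently of each other. They lie at chr10:93758942-93759001 and chr10:93758922-93758981 on the plus strand of mm7, and the sequences are those of the array file, 5′ to 3′.
Ndufa12 probe A_51_P458538: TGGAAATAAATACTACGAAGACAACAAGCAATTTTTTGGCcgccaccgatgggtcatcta
Ndufa12 probe A_51_P458540: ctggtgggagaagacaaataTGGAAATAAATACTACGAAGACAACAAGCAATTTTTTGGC

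The calls on both genes depended on the filter, the scaling and the model of the spread. Ndufb5 passed with the filter on all 6 arrays (adjusted p = 0.029), with an intensity trend and robust fit (0.013), with array quality weights (0.012) and with the slide as a block together with the trend (0.017), and Ndufa12 passed in the last 3 of these (0.025, 0.022 and 0.031) and with normexp and quantile normalization (0.040). Over all 23 alternatives, the adjusted p by limma reached 0.43 for Ndufb5 and 0.44 for Ndufa12, and neither difference changed sign.

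**Figure D2:**
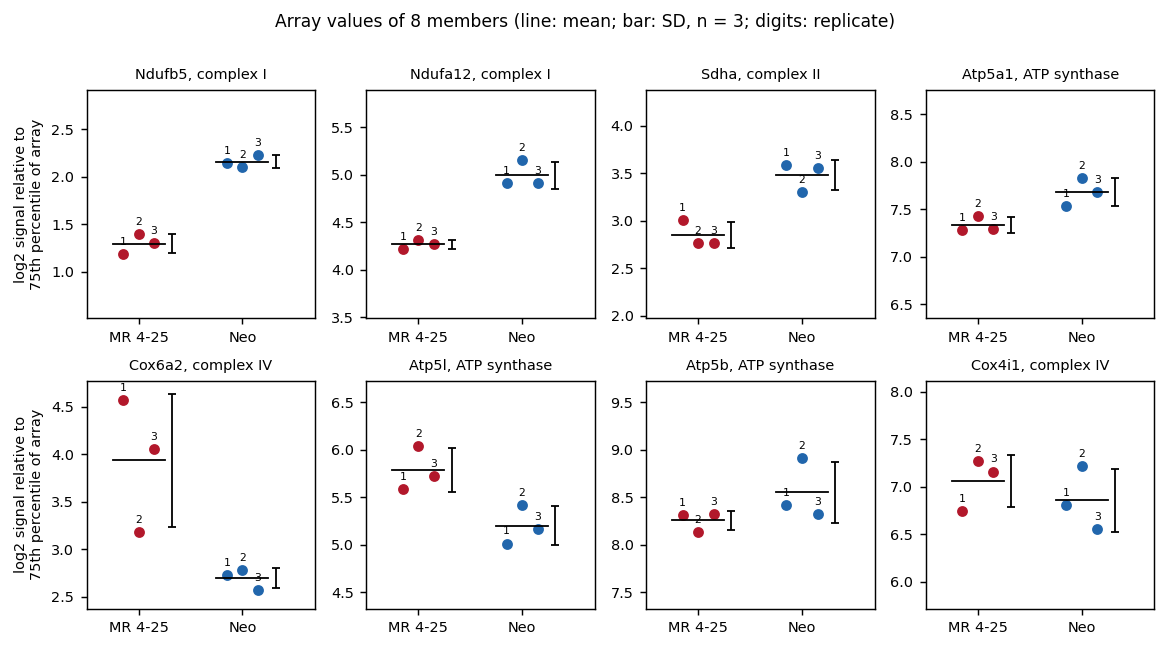
Log2 level relative to the 75th percentile of the array for 8 members, with MR 4-25 (red) left of Neo (blue), a point for each array, digits for the replicate, a line for the mean and a bar for the SD (n = 3). Each panel spans the same range of log2 units. The brightest probe of each gene is shown. Ndufb5, Ndufa12, Sdha and Atp5a1 are lower on every MR 4-25 array than on every Neo array, Cox6a2 and Atp5l are higher, and Atp5b and Cox4i1 overlap.

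Of the other complex I subunits whose lines did not overlap, Ndufa5, of the matrix arm, had 5.24, 5.38 and 4.95 in MR 4-25, against 5.68, 5.91 and 5.55 in Neo (difference -0.53, SE 0.19, n = 3 per line, adjusted p = 0.34 by limma). Ndufs7, the core subunit that carries the last iron-sulphur cluster before ubiquinone, had 6.14, 6.05 and 5.75 in MR 4-25, against 6.46, 6.67 and 6.19 in Neo (difference -0.46, SE 0.20, n = 3 per line, adjusted p = 0.43). Ndufa10, an accessory subunit of the membrane arm, had 3.41, 3.53 and 3.53 in MR 4-25, against 4.03, 4.02 and 3.71 in Neo (difference -0.43, SE 0.16, n = 3 per line, adjusted p = 0.36 by limma). In all 3 the gap between the lines was smaller than the span of the replicates of at least 1 line. Ndufs1, the largest core subunit, differed by -0.40 over all arrays, by -0.60 on slide 1 and by -0.0018 on slide 2, where its single arrays were at 4.95 in MR 4-25 and 4.95 in Neo.

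Higher in MR 4-25 without overlap were Ndufa7, an accessory subunit of the matrix arm, at 5.17, 5.23 and 5.40 in MR 4-25 and 4.61, 5.14 and 4.95 in Neo, and Ndufs4, an accessory subunit whose loss is known to disturb complex I assembly in mice. Ndufs4 had 3.68, 3.95 and 3.98 in MR 4-25, against 3.54, 3.61 and 3.56 in Neo. Their differences were 0.37 and 0.30, with adjusted p-values by limma of 0.53 and 0.51. Ndufa13, known also as a factor named GRIM-19, differed by 0.36 (SE 0.22, n = 3 per line), its lines overlapped, and the difference was -0.02 with normexp. The other complex I subunits lay between -0.25 and 0.33 on their brightest probes.

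The probes of a gene did not always give the same value. Among the 21 members with more than 1 measured probe, the gap between the highest and the lowest difference had a median of 0.22, and in 7 the signs were opposite. No member probe passed when all 30965 probes were tested on their own, of which 401 passed. Ndufab1, the mitochondrial acyl carrier protein that is both a complex I subunit and a carrier in fatty acid synthesis, had the widest gap. Its brightest probe, which stands for the gene here, was at 4.61, 5.03 and 4.46 in MR 4-25 and 4.75, 5.25 and 4.69 in Neo, a difference of -0.20 with overlap of the lines. A second probe, at chr7:118012418-118012477, was at 0.36, 1.03 and 0.49 in MR 4-25 and 1.65, 1.77 and 1.48 in Neo, a difference of -1.01 without overlap. Another, at chr7:118011283-118011342, was at -2.37, -2.16 and -2.68 in MR 4-25 and -1.24, -1.30 and -1.16 in Neo, a difference of -1.17 without overlap (adjusted p over all probes 0.066 by limma). The choice of the brightest probe therefore sets what is reported for Ndufab1.

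Ndufb8, an accessory subunit of the membrane arm, differed by 0.15 on its brightest probe and by -0.57 on the other, and Ndufa3, of the same arm, by 0.20 and 0.81. Both second probes were far dimmer. That of Ndufb8 was at -1.85, -1.72 and -2.15 in MR 4-25 and -1.30, -1.47 and -1.24 in Neo. Its brightest was at 6.54, 6.71 and 6.76 in MR 4-25 and 6.41, 6.80 and 6.35 in Neo. The second probe of Ndufa3 was at -2.72, -2.94 and -2.39 in MR 4-25 and -3.575, -3.60 and -3.30 in Neo. Its brightest was at 3.06, 3.19 and 3.30 in MR 4-25 and 2.84, 3.27 and 2.85 in Neo. Whether they measure the same transcript was not tested. The brightest probes of Ndufab1 and Ndufb8 are printed to show what was measured. They hold no capitals, because no run of bases was shared with another probe of the same gene. The Ndufab1 probe lies at chr7:118015882-118015941 on the minus strand of mm7. The 60 bases of the Ndufb8 probe are spread over chr19:44444238-44446582, also on the minus strand, a span of 2345 bases, so that it crosses at least 1 splice junction.
Ndufab1 probe A_52_P1093473: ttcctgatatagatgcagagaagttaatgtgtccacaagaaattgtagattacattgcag
Ndufb8 probe A_51_P247873: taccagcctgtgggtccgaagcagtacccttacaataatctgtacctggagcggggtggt

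In complex II, 0 of 4 subunits passed the test, and the median difference was -0.21. Sdha, the flavoprotein that oxidises succinate and so joins the citric acid cycle to the chain, had log2 levels of 3.00, 2.77 and 2.76 in MR 4-25, against 3.58, 3.30 and 3.56 in Neo. All 3 MR 4-25 arrays were below all 3 Neo arrays. The difference was -0.63 (SE 0.17, n = 3 per line), a 1.55-fold lower signal, with an unadjusted p of 0.011 and an adjusted p of 0.20 by limma. It passed under 1 of 23 alternatives, array quality weights (adjusted p = 0.033), and the adjusted p reached 0.63 under another. Its second probe differed by -0.23 (SE 0.17), with 2.08, 2.14 and 2.45 in MR 4-25 and 2.59, 2.37 and 2.39 in Neo, so the arrays of the lines overlapped there.

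Sdhd, a membrane anchor of complex II, had 5.24, 5.42 and 4.85 in MR 4-25, against 5.48, 5.67 and 5.46 in Neo. The lines were next to each other without overlap, and the difference was -0.37 (SE 0.20, n = 3 per line, adjusted p = 0.55 by limma). Sdhc, the other anchor, differed by -0.05, and Sdhb, the iron-sulphur subunit, by 0.02. The sign of the Sdhb difference changed in 6 of 23 alternatives, with values from -0.22 to 0.15.

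In complex III, on the brightest probe of each gene, 0 of the 7 subunits under the name pattern passed. None had an unadjusted p under 0.05, and in none were the lines without overlap. Cyc1, cytochrome c1, does not match the pattern and is counted below among the electron carriers. It differed by 0.05 (SE 0.25). The median difference was -0.03, and all 7 intervals lay within 2-fold. The differences of the core proteins Uqcrc1 and Uqcrc2 were -0.03 and -0.03, and that of Uqcrfs1, the Rieske iron-sulphur protein, was -0.23. Uqcr, a small subunit, was lowest at -0.33 (SE 0.22), with 6.69, 7.12 and 6.91 in MR 4-25 and 7.15, 7.56 and 7.01 in Neo. Uqcrb, a ubiquinone-binding subunit, was highest at 0.28 (SE 0.27), with 4.60, 5.35 and 4.57 in MR 4-25 and 4.58, 4.69 and 4.41 in Neo. That value rested on MR 4-25 replicate 2, and without it the difference was 0.03. Uqcrh and Uqcrq, small subunits of the same complex, differed by -0.03 and 0.06. Their second probes differed by 0.04 and -0.16, with overlap in both.

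In complex IV, cytochrome c oxidase, 15 of 17 names were measured and 0 passed the test. The median difference was -0.09. Several of its subunits exist in a form found in most tissues and in a form known from heart and skeletal muscle, lung or testis. Cox6a2, the heart and skeletal muscle form of subunit VIa, had the highest difference of all 80 members. Its log2 levels were 4.57, 3.19 and 4.06 in MR 4-25, against 2.73, 2.78 and 2.58 in Neo. Every MR 4-25 array was above every Neo array, but the MR 4-25 arrays were spread over more than 1 log2 unit and the Neo arrays over far less. The difference was 1.24 (SE 0.38, n = 3 per line), a 2.37-fold higher signal, with an unadjusted p of 0.020 and an adjusted p of 0.25 by limma, and it was 1.13 on slide 1 and 1.48 on slide 2. Over 23 alternatives it ran from 0.70 to 1.62 with adjusted p-values of 0.12 to 0.63.

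Cox6a1, the common form of the same subunit, had 8.85, 8.72 and 8.22 in MR 4-25, against 8.68, 8.92 and 8.56 in Neo, with overlap and a difference of -0.12 (SE 0.23). The difference between the Cox6a2 and Cox6a1 differences was 1.37 ± 0.44 (SE). In an exact two-sided permutation test over arrays it reached p = 0.1, the smallest p that 3 arrays against 3 allow, and 0.4 after adjustment over the 4 pairs of forms compared. Of 5 muscle markers, Tnnt2 was well above background on no array, 2 were so on all 3 MR 4-25 arrays and 3 on all 3 Neo arrays, and the median difference of the 4 measured was -0.05. Ckm, muscle creatine kinase, was at -2.42, -2.78 and -4.64 in MR 4-25 and -2.50, -2.52 and -6.06 in Neo. Its difference was 0.42 (SE 1.19), the only one of the 4 above 0. Acta1, Myh6 and Actc1 differed by -0.56 (SE 0.45), -0.06 (SE 0.42) and -0.05 (SE 0.17). The part of other muscle transcripts in the Cox6a2 result was not tested. The measured genes on either side of Cox6a2 in the RefSeq order were Itgax (difference 0.20, SE 1.03) and 9130023H24Rik (-0.33, SE 0.23).

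The other 3 measured tissue forms were dimmer on slide 2 than on slide 1 in both lines. Cox4i2, the lung form of subunit IV, was at -2.99, -3.45 and -5.48 in MR 4-25 and -3.16, -3.27 and -7.66 in Neo, and it was well above background on 4 of 6 arrays. Cox6b2, the testis form of subunit VIb, was at 0.32, 0.18 and -0.96 in MR 4-25 and 0.08, 0.37 and -1.999 in Neo, and Cox7a1, the heart and muscle form of subunit VIIa, at -1.33, -1.63 and -2.17 in MR 4-25 and -1.30, -1.26 and -2.42 in Neo. In all 3 genes replicate 3, the slide 2 array, was lowest in its line. Their differences, 0.72 (SE 1.45), 0.36 (SE 0.75) and -0.05 (SE 0.41), were smaller than their standard errors. Set against the difference of the common form of the subunit, that of Cox4i2 was higher than that of Cox4i1 by 0.52 ± 1.59 (SE), that of Cox6b2 than that of Cox6b1 by 0.62 ± 0.73 and that of Cox7a1 than that of Cox7a2 by 0.04 ± 0.43. The exact permutation p-values were 0.8, 0.7 and 1.0 in that order, which does not show that the forms act alike. Hbb-b1, a red cell globin, which is no member, was lower on the slide 2 arrays too, at -0.28, -0.34 and -1.93 in MR 4-25 and -0.42, -0.41 and -2.24 in Neo.

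The common subunits of complex IV lay between -0.25 for Cox6b1 and 0.20 for Cox4i1. Cox4i1, the regulatory subunit of complex IV found in most tissues, had 6.75, 7.27 and 7.16 in MR 4-25 and 6.81, 7.22 and 6.56 in Neo, with full overlap. Ndufa4, named for complex I and now assigned to complex IV, had 5.89, 5.93 and 5.83 in MR 4-25 and 6.02, 6.29 and 5.99 in Neo, a difference of -0.22 (SE 0.16, adjusted p = 0.65 by limma) without overlap. Cox7b, Cox7a2 and Cox8a, 3 small subunits of the membrane part, differed by -0.24, -0.09 and 0.13, and Cox5a and Cox5b, which face the matrix, by -0.09 and 0.14. Changes of sign with the processing are counted in the closing part, with values for some of these genes.

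In the ATP synthase, 0 of 15 subunits passed the test, 10 differences were below 0 and 5 above, and the median was -0.14. The split was 14 below and 1 above with normexp, with and without quantile normalization, 12 and 3 with quantile normalization alone, and 11 and 4 with median scaling. Atp5a1 and Atp5b are the alpha and beta subunits that form the ring of F1, where ATP is made. Atp5a1 had 7.28, 7.43 and 7.29 in MR 4-25, against 7.53, 7.82 and 7.68 in Neo, with no overlap (difference -0.34, SE 0.15, n = 3 per line, adjusted p = 0.44 by limma). Atp5b had 8.31, 8.14 and 8.32 in MR 4-25, against 8.42, 8.92 and 8.32 in Neo. On this brightest probe its lines overlapped on slide 2, where the 2 arrays were at the same level, and its difference was -0.30. The other 2 probes of Atp5b differed by -0.45 and -0.62, and on both every MR 4-25 array was below every Neo array. Their unadjusted p was 0.030 and 0.016, and their adjusted p over all probes 0.29 and 0.22, by limma. A second probe of Atp5a1 differed by -0.28, with overlap. The other F1 subunits, Atp5c1, Atp5d and Atp5e, which make up the central stalk, differed by -0.12, 0.01 and 0.13.

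On the brightest probe of each gene, Atp5l, the g subunit of the membrane part, was the only ATP synthase subunit with an unadjusted p under 0.05. Its log2 levels were 5.59, 6.04 and 5.72 in MR 4-25, against 5.01, 5.42 and 5.16 in Neo. All MR 4-25 arrays were above all Neo arrays, and in both lines replicate 2 was highest. The difference was 0.58 (SE 0.20, n = 3 per line), a 1.499-fold higher signal, with an unadjusted p of 0.032 and an adjusted p of 0.31 by limma, and it was 0.60 on slide 1 and 0.56 on slide 2. It passed under 1 of 23 alternatives, array quality weights (adjusted p = 0.048), with a highest adjusted p of 0.77 among them.

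Atp5g1, Atp5g2 and Atp5g3 are 3 genes known to encode the same mature c subunit, the rotor ring of Fo. Their differences were -0.37 (SE 0.26), -0.38 (SE 0.23) and -0.16 (SE 0.18), and the lines overlapped in each. Atp5g2 had 5.50, 5.54 and 5.96 in MR 4-25 and 5.97, 6.35 and 5.83 in Neo, and on slide 2 the MR 4-25 array was the higher one. The remaining subunits of Fo and the stalks, Atp5f1, Atp5h, Atp5j, Atp5j2, Atp5k and Atp5o, lay between -0.15 and 0.07 on their brightest probes. A second probe of Atp5h differed by -0.32 (SE 0.18) without overlap. The other probes of Atp5f1 differed by 0.14 and 0.29, with overlap.

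Of the genes with the name pattern that are not counted as subunits, Cox7a2l, known to help join complexes III and IV into supercomplexes, differed by 0.29, Ndufaf1, an assembly factor of complex I, by -0.11, and Atp5s by -0.17. Cox4nb, named for its position beside Cox4i1 and known as a subunit of an endoplasmic reticulum membrane complex, differed by -0.23. None of the 4 passed the test. Names updated through RefSeq brought 15 further genes under the pattern, and none of them passed either. Among these, Ndufaf3, an assembly factor of complex I, had 2.04, 1.82 and 2.32 in MR 4-25, against 1.21, 1.48 and 1.12 in Neo (difference 0.79, SE 0.20, n = 3 per line, adjusted p = 0.19 by limma). Sdhaf1, an assembly factor of complex II, had 3.05, 3.24 and 3.04 in MR 4-25, against 2.49, 2.32 and 2.65 in Neo (difference 0.62, SE 0.16, n = 3 per line, adjusted p = 0.20 by limma). In both the lines did not overlap, and both were chosen for mention after their values were seen. Ndufv3 was also higher without overlap, by 0.23. Lower without overlap were Ndufaf4 and Ndufaf6, also assembly factors of complex I, at -0.47 and -0.19 (adjusted p = 0.32 and 0.68 by limma). With updated names, 7 of 95 genes (7.37%) were higher without overlap, against 11.2% of all genes. On the lower side there were 12 (12.6%), against 13.1% of all genes.

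The median deviation of the 80 members from their own mean over 6 arrays was -0.15, 0.15 and -0.12 on MR 4-25 replicates 1, 2 and 3, against -0.01, 0.23 and -0.11 on Neo replicates 1, 2 and 3. Replicate 2 was highest in both lines, and the span between replicates of a line was larger than the median difference between the lines. The deviations of the members from the mean of their line correlated between same-numbered arrays at 0.67, 0.30 and 0.70 for replicates 1, 2 and 3, as a description over 80 genes that share these arrays. Same-numbered arrays of the 2 lines lie on 1 slide, so slide and replicate number cannot be told apart for replicate 3.

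The array also held 4 probes placed on the mitochondrial genome or described as mitochondrial transcripts, which are no members and have no gene symbol in the file. None passed the test. The probe described as subunit II of cytochrome c oxidase was at 8.31, 8.07 and 7.50 in MR 4-25 and 8.17, 8.36 and 8.22 in Neo, and the array annotation places it on chromosome 1. A probe described as NADH dehydrogenase 4, a core subunit of complex I, was at 4.95, 4.74 and 3.61 in MR 4-25 and 5.03, 4.94 and 4.87 in Neo. On MR 4-25 replicate 3, the dimmest array, all 4 probes were at their lowest. The NADH dehydrogenase 4 probe differed by -0.14 on slide 1 and -1.25 on slide 2. Probes described as subunits I and II of cytochrome c oxidase differed by -0.24 and -0.08 on slide 1 and by -1.60 and -0.71 on slide 2. The last probe differed by 0.15 on slide 1 and -0.86 on slide 2. Its annotated position overlaps that of the NADH dehydrogenase 4 probe, so the 4 probes do not stand for 4 separate transcripts. The median difference of the 80 nuclear members was -0.09 on slide 1 and -0.0008 on slide 2. Degradation, priming and the amount of RNA on that array were not tested.

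**Figure D3:**
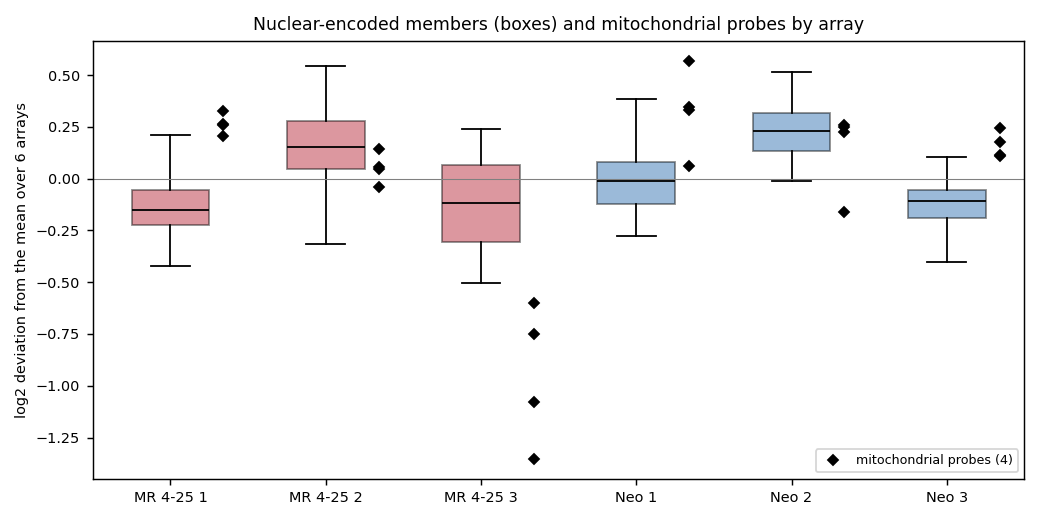
Deviation of the log2 level from its own mean over 6 arrays, by array, for the 80 nuclear-coded members (boxes from the lower to the upper quartile with the median, whiskers from the 5th to the 95th percentile; MR 4-25 red, Neo blue) and for 4 mitochondrial probes (diamonds). The medians of the boxes run from -0.15 to 0.23 and are highest on replicate 2 of both lines, and the diamonds are lowest on MR 4-25 replicate 3.

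Genes of this group are known targets of nuclear respiratory factor 1, so the promoters were searched for 3 motifs. RefSeq promoters of build GRCm38.p6, 300 bases from 250 before to 50 after the start, were given for 67 of the 82 names. The letters of the NRF1 motif, GCGCNTGCG on either strand, were in 22 of 67 (32.8%), in 1693 of 17492 protein-coding genes (9.68%), and in 18 of 69 mitochondrial ribosomal protein genes (26.1%). The YY1 letters AAGATGGCG were in 7 of 67 (10.4%) against 2.14% of all, and the ETS letters CCGGAAGT, as bound by GABPA, in 5 of 67 (7.46%) against 5.69%. The NRF1 and YY1 letters were shortened by 1 base after a first search, in which they were in 17 of 67 (25.4%) against 7.17% of all, and in 5 of 67 (7.46%) against 1.41%. A match is a run of letters and not a shown binding site. The median difference between the lines was -0.11 for the 22 measured members with the NRF1 letters and -0.07 for the 44 measured members without them.

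The promoters of 2 members that did not overlap between the lines are printed, with the matched letters in capitals. Both hold a match, which not all such members do. Among the others without overlap, Ndufa12, Ndufa5, Sdhd and Atp5l held the NRF1 letters and Ndufs4 the YY1 letters. Ndufb5, Ndufa10, Ndufa4 and Ndufa7 held none of the 3 motifs. That of Sdha, on the minus strand at chr13:74350191-74350490, holds 3 runs of the NRF1 letters read from the other strand. That of Ndufs7, on the plus strand at chr10:80249199-80249498, holds 1 run of the YY1 letters, which begins 24 bases after the start. Both coordinates are on GRCm38.p6 and differ from the mm7 positions of the probes.
Sdha promoter: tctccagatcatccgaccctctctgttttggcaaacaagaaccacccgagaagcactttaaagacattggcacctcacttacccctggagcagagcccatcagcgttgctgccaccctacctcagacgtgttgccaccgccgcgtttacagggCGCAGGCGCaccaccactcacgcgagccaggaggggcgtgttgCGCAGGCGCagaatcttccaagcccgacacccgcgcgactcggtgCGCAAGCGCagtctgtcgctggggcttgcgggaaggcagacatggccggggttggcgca
Ndufs7 promoter: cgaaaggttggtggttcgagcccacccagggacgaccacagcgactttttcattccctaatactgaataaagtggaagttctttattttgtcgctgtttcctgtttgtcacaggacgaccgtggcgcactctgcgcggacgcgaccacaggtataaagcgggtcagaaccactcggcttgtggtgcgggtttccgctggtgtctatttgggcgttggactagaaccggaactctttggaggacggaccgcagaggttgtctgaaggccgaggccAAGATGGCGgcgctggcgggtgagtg

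The lists of related mitochondrial genes gave no call either. Of 13 measured electron carriers and ubiquinone synthesis genes, 0 passed, with a median difference of -0.08, and cytochrome c, Cycs, differed by 0.09 (SE 0.27). Of 19 assembly genes 0 passed, with a median of -0.12. The lowest of them, Lrpprc, which stabilises mitochondrial messages, had 3.59, 3.74 and 3.31 in MR 4-25, against 4.51, 4.54 and 4.36 in Neo, a difference of -0.92 (SE 0.18, n = 3 per line, adjusted p = 0.11 by limma). Of 13 citric acid cycle genes 0 passed, 11 were below 0 and the median was -0.15.

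Of 13 regulators of mitochondrial biogenesis 0 passed, 9 differences were below 0, and the median was -0.48. Tfb2m, a mitochondrial transcription factor, had -0.18, -0.01 and -0.53 in MR 4-25, against 1.04, 1.18 and 0.78 in Neo, a difference of -1.24 (SE 0.21, n = 3 per line, adjusted p = 0.084 by limma). Polrmt, the mitochondrial RNA polymerase, had 2.71, 2.63 and 2.55 in MR 4-25, against 3.48, 3.47 and 3.20 in Neo, a difference of -0.75 (SE 0.16, n = 3 per line, adjusted p = 0.13 by limma). Both lay without overlap below Neo. Nrf1, which codes for the factor whose letters were counted above, lay without overlap on the other side, with 0.84, 1.33 and 0.96 in MR 4-25 and 0.65, 0.57 and 0.59 in Neo (difference 0.44, SE 0.18, n = 3 per line, adjusted p = 0.40 by limma). These genes were chosen for mention after their values were seen.

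Both sets of ribosomal proteins are shown beside the members because they too are large groups of bright genes. Of 75 mitochondrial ribosomal proteins 0 passed, 58 were below 0 and the median was -0.19, between -0.39 and -0.17 under the other scalings. Of 77 cytosolic ribosomal proteins 0 passed, 68 were above 0 and the median was 0.20, but it was -0.01 with quantile normalization and 0.00 with normexp. The median of the members, -0.06, lay between those of both sets, and it was below 0 in the 4 other scalings as well, from -0.29 to -0.07. With normexp the median of all genes was 0.34. Relative to it, the normexp medians were -0.34 for cytosolic ribosomal proteins, -0.74 for mitochondrial ones and -0.64 for the members. With normexp, 76 of the 77 cytosolic ribosomal proteins lay below the median of all genes. No test of the members against these sets was made.

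**Figure D4:**
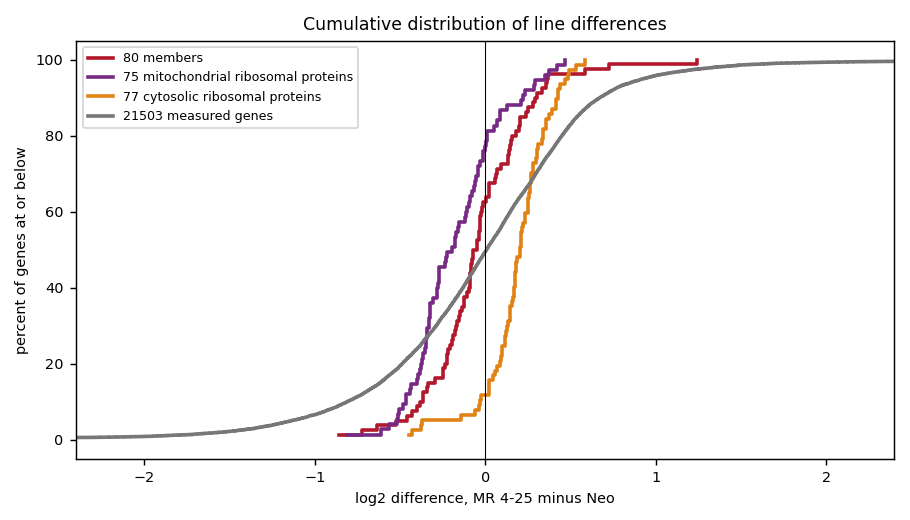
Cumulative percent of genes at or below a given log2 difference, MR 4-25 minus Neo, for the 80 members, 75 mitochondrial ribosomal proteins, 77 cytosolic ribosomal proteins and all 21503 measured genes; the axis is cut, and beyond it lie some of all genes. The curve of the members is steeper than that of all genes and crosses 50% at -0.06.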

How the data were processed

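The authors deposited the scanner's output, whose processed intensity values had the background already removed. The software was Feature Extraction by Agilent, version 9.5.3.1 in the file headers and 9.5 in the submitters' processing notes. The deposited value table held the same intensity values. Further steps by the authors are not given in the sources used here, and positions are those of the deposited annotation on mm7.

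The deposited signals were turned into log2 values, less the 75th percentile of the 43379 gene spots of each array. Control spots were left out, outlier spots masked, spots of a probe averaged, and the brightest probe by mean over 6 arrays stood for a gene. The comparison of the lines used lmFit and eBayes of limma (3.58.1, in R 4.3.3) with Benjamini-Hochberg adjustment, and the fit was tested on simulated data. The simulated arrays were drawn independently of each other. They held no effect of slide or replicate, so they cannot show how the fit behaves where arrays share one. The changes put into them were 2-fold or more, larger than the difference of any member but Cox6a2. They therefore cannot show how often smaller differences, like those of most members, would be called. Forms of a subunit were compared by exact permutation over arrays (scipy 1.17.1). No log2 value has a count behind it, so the number of arrays limits the precision, and probes were not checked for matches to related genes or pseudogenes. Figures were drawn with matplotlib 3.10.9 in Python 3.11.15.

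The members and lists were chosen with earlier results of these data known. Members are named when they passed the test, when they were among the 2 highest or 2 lowest of their complex, or as tissue forms; others are named where a count or a probe comparison rests on them, after their values were seen. Of 113 member probes, RefSeq named 99 by accession and 2 by synonym, and 12 kept a current symbol. Alternatives covered background correction, scaling, filter, probe choice, names, source table, model, slide and replicate. Deviations of same-numbered arrays from the line mean correlated at 0.29, 0.21 and 0.56 over all genes, all above 0.1. The numbers of the labels were therefore treated as pairs in the alternative with the replicate block. The main fit held no block, so its p-values and intervals do not use this pairing.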

Additional observations from a re-analysis of the deposited data

How the results depend on the processing

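Of 23 alternatives, 2 of them added after seeing the data (slide as a block with quantile normalization, and with an intensity trend and robust fit), 5 brought members past the test and the rest left 0. The count lower in MR 4-25 was 1 with normexp and quantile normalization, 1 with the filter on all 6 arrays, 2 with the trend and robust fit, 2 with that fit and the slide block, and 5 with array quality weights, where 1 member was higher. With the replicate block 0 members passed, with a lowest adjusted p of 0.24 by limma, and the count over all genes was 1. It changed no other call. Over all genes the count was 79 with normexp, 504 with normexp and quantile, 518 with the filter on all 6 arrays, 401 over every probe, 719 with the trend and robust fit, 2054 with array quality weights, 127 on slide 1 alone, 949 with the slide block and trend, and 0 to 224 when leaving out 1 array. Members without overlap numbered 2 higher with normexp, 7 higher and 18 lower with quantile normalization, with and without the slide block, 20 lower with normexp and quantile, 20 lower over every probe, 7 higher with updated names, 20 lower on slide 1 alone, and 4 to 11 higher and 10 to 28 lower when leaving out 1 array. All genes also changed with the setting, and without overlap were 16.2% higher with normexp, 11.6% higher and 12.8% lower with quantile normalization, 12.8% lower with both steps, 14.4% lower over every probe, 11.2% higher with updated names, and 26.1% lower on slide 1 alone. The median over members was -0.29 with normexp, and -0.16 to 0.03 when leaving out 1 array. Without a filter the median of all genes was 0.10.

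Of the 80 members, the sign turned in 25 with normexp, 9 with quantile normalization, 13 with both steps, 1 with median scaling, 6 as a mean over probes, 23 with array weights, 9 on slide 1 alone, and 4 to 20 when leaving out 1 array. Values are given below only for the members named by rule, so these lists are shorter than the counts. With normexp these were Ndufa13 at -0.021, Sdhb at -0.22, Uqcrb at -0.083, Uqcrq at -0.15, Atp5e at -0.20, Cox7a2l at -0.047, Cox4i1 at -0.14, Cox8a at -0.14 and Cox7a1 at 0.38. With quantile normalization, with or without the slide block, they were Uqcrq at -0.085 and Cox8a at -0.0145. With both steps they were Uqcrq at -0.078, Atp5e at -0.069, Cox4i1 at -0.057, Cox8a at -0.048 and Cox7a1 at 0.032. Uqcrq was at -0.0503 as a mean over probes. With array weights they were Sdhb at -0.0298, Uqcrfs1 at 0.0021, Cox6b1 at 0.041, Cox7b at 0.0502, Atp5s at 0.10 and Cox7a2 at 0.068. On slide 1 alone they were Sdhb at -0.18 and Cox4i2 at -0.0067. Leaving out 1 array gave ranges of -0.10 to 0.15 for Sdhb, -0.051 to 0.21 for Uqcrq, -0.76 to 1.49 for Cox4i2, -0.38 to 0.81 for Cox6b2, -0.43 to 0.18 for Cox7a1, -0.22 to 0.025 for Cox7a2, -0.25 to 0.0625 for Cox6a1 and -0.076 to 0.31 for Atp5e. The cause was not tested. Cox4i2 fails the filter on all 6 arrays and has no value there.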
